A study of Homo sapiens with 32 samples.

Results

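The regions described here are 36787 positions where YY1 was mapped in HEK293T cells away from gene starts and away from 3 other transcription factors. They were chosen by their measured positions: summits of the YY1 list on chromosomes 1 to 22 and X that lay more than 2000 bp from the 5′ end of every protein-coding gene and had no ZNF143, SP1 or NRF1 summit within 100 bp. They made up 34.5% of the 106578 YY1 summits on those chromosomes and 47.2% of the distal ones, out of 288104 summits in 4 lists. They are called solitary distal summits below, and the other 41181 distal YY1 summits, which had another factor within 100 bp, are called shared distal summits. The name solitary refers to those 100 bp alone. Of the solitary summits, 48.6% were the only summit of their peak, and 60.5% lay within 1000 bp of another factor. Since position and presence in the 4 lists chose the members, scores and distances to other factors are given as descriptions, with no test.

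YY1 is a zinc finger protein present in nearly all human cells, named for acting as an activator in some settings and as a repressor in others. At promoters it binds a motif with the core ATGGC close to the start of transcription, and away from promoters it is known to help hold enhancers and promoters together. CTCF, another zinc finger protein, binds insulators and anchors chromatin loops, and its consensus was searched for beside that of YY1. Much of the human genome consists of interspersed repeats, sequences that have copied themselves to many places, and some of these copies carry sites for transcription factors.

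The data were chromatin immunoprecipitation with sequencing, in which DNA bound by a protein is recovered with an antibody and sequenced. All 32 samples came from HEK_CloneZD29, a single clone of the HEK293T human embryonic kidney line in which ZNF143 carries an inducible dTAG degron, so that controls carry the degron too. Cells were left untreated or given 50 nM dTAGV-1, which sends the tagged protein to degradation, for 30 minutes. SP1, NRF1 and YY1 antibodies were used on 4 untreated and 4 treated samples each, and the HA antibody for ZNF143 and a mock precipitation on 2 untreated and 2 treated samples each. A summit is the position of highest signal within a called peak, and each list holds 1 position and 1 score per summit for an antibody, with no value per sample or treatment. The labels of YY1 and NRF1 samples name no list, so these lists were matched by the antibody in their names, and whether treated and untreated samples were pooled in them is not stated. Treated and untreated cells could therefore not be compared, read depth was unknown, and summits within a list are not biological replicates. Each share is followed by its 95% interval by Wilson's method, which reflects counting error alone. The lists hold no expression values, so cell type markers could not be checked.

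Sequences in lower case below are read 5′ to 3′ on the strand that carries the motif as written, except where a strand is named, and capitals mark a match to a consensus. Those shown here are solitary distal summits that lay further than 1000 bp from any other factor and held the YY1 consensus within 15 bp of the summit, and they show the site without a neighbour. They are 4 of the highest-scoring in introns among those whose 25 bases at the summit occur once in hg38, and this choice was made after their values were seen.
chr19:56252923-56252963, ZSCAN5A intron: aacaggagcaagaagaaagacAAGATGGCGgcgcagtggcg
chr4:83509272-83509312, ABRAXAS1 intron: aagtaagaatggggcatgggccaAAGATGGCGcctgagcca
chr9:38708102-38708142, FAM240B intron: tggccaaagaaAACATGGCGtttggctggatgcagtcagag
chr6:150905938-150905978, MTHFD1L intron: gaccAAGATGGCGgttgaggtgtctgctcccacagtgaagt

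The YY1 consensus marked solitary distal summits more than shared ones. It was written as AANATGGCG, where N is any base, and was searched on both strands wholly within 50 bp of the summit. It was found at 1477 solitary distal summits (4.02%, interval 3.82 to 4.22), against 2.52% of all YY1 summits. Shared distal summits held it in 0.699% (0.623 to 0.785), and the 2 flanks of each solitary summit, windows of equal width centred 400 bp away, in 0.270% on average. The odds were 5.94 times higher at solitary than at shared distal summits (95% interval 5.23 to 6.74; two-sided Fisher's exact test, adjusted p = 1.70e-226 over 21 features). Other settings gave odds ratios from 2.60, with the other factors' lists cut to equal length, to 11.3, with only summits that are alone in their peak. For summits whose 25 bases occur once in hg38 the odds ratio was 5.27 (4.50 to 6.16). The Fisher's tests here and below count each summit separately. Summits share peaks, and copies of a repeat are not independent, so the p-values and intervals overstate the certainty. Distal SP1 summits with no ZNF143, NRF1 or YY1 summit within 100 bp, 57226 in number, held the YY1 consensus in 0.0577%. They were chosen for having no YY1 summit nearby, so that share is a description with no test. YY1 summits within 2000 bp of a gene start held it in 3.22%, and the difference from solitary distal summits was not tested. These are shares per summit, and the 28610 summits near gene starts lay in 12480 peaks, the solitary ones in 29596. Only 15.8% of the former were alone in their peak, against 48.6% of the latter. The order of these 2 shares need not hold per peak.

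Most solitary distal summits had no exact match. With any base at the ninth position, AANATGGC was found at 13.6% of them (lower bound 13.3), at 2.66% of their flanks, at 3.74% of shared distal summits and at 7.71% of all YY1 summits. Within 100 bp, the 1935 nearest copies of the full consensus lay a median of 26 bp from the summit, and 41.1% lay within 20 bp of it. Of these copies 51.2% were on the plus strand. Among 8-letter sequences present at no fewer than 0.5% of solitary summits, AGATGGCG on either strand had the highest ratio to the flanks, at 3.06% against 0.170%, an 18.0-fold ratio. The next were ATGGCGCC (2.32%) and the palindrome TGGCGCCA (1.86%), which overlap the consensus or follow on from it.

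The CTCF consensus was found at 814 solitary distal summits (2.21%, 2.07 to 2.37), against 2.29% of all YY1 summits, and at 0.0870% of their flanks. It was less frequent than at shared distal summits, which held it in 3.65% (odds ratio 0.597, 0.548 to 0.651; Fisher's exact test, adjusted p = 5.84e-32). This direction turned under other definitions. With another factor sought within 1000 bp, the odds ratio was 1.64, and with the top 50% of each list it was 2.18. With the other factors' lists, but not the YY1 list, cut to the length of the shortest, it was 1.97. Only 2 solitary summits held both the YY1 and the CTCF consensus, and 93.8% held neither.

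**Figure D1:**
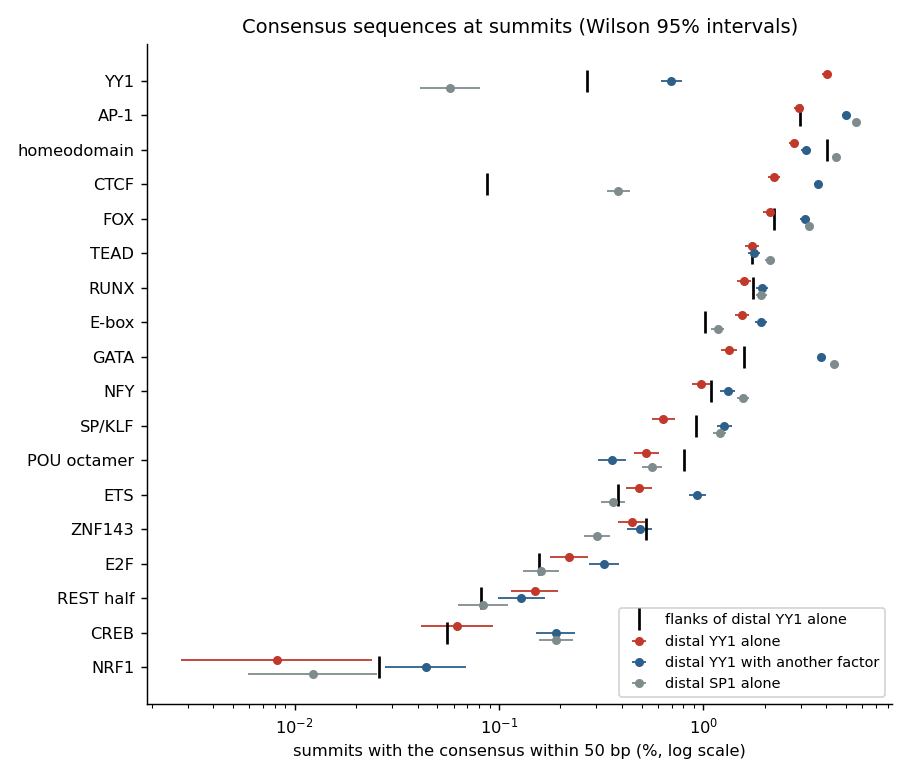
Share of summits with each of 18 consensus sequences within 50 bp (x axis, percent, log scale) for solitary distal YY1 summits, shared distal YY1 summits and distal SP1 summits alone, with Wilson 95% intervals as bars, and black marks for the flanks of the solitary summits. The YY1 row shows the solitary summits at 4.02%, to the right of the other classes, while the GATA row shows them at 1.33%, to the left.

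Solitary summits were themselves not alike, and the nearest summit of another factor ordered their sequences. That neighbour lay a median of 511 bp away and was an SP1 summit for 82.1% of members. The YY1 consensus was found at 1.32% of the 10711 members whose nearest other factor lay at 101 to 250 bp and at 1.53% of those at 251 to 500 bp. It rose to 3.95% at 501 to 1000 bp and to 7.89% (7.20 to 8.63) at 1001 to 5000 bp, and stood at 5.90% (4.89 to 7.10) beyond 50000 bp. The CTCF consensus fell from 1.42% at 101 to 250 bp to 0.224% at 501 to 1000 bp and then stood at 6.75% (5.67 to 8.02) beyond 50000 bp. Closer in, among shared summits, the CTCF share was 4.14% within 25 bp of another factor, where the YY1 share was 0.557%.

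A split at 1000 bp, made after these values were seen, gives 22253 members nearer to another factor and 14534 (39.5%) further away. The far ones held the YY1 consensus in 7.31% (6.90 to 7.74) and the CTCF consensus in 4.31% (3.99 to 4.65), against 1.86% and 0.845% of the near ones. AANATGGC was found at 21.8% of the far and 8.29% of the near summits. The far summits were the only summit of their peak in 83.5% of cases, the near ones in 25.9%. An annotated transcript start lay within 500 bp of 4.87% of the far and 13.9% of the near summits. Median scores were 8.80 far and 6.79 near.

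**Figure D2:**
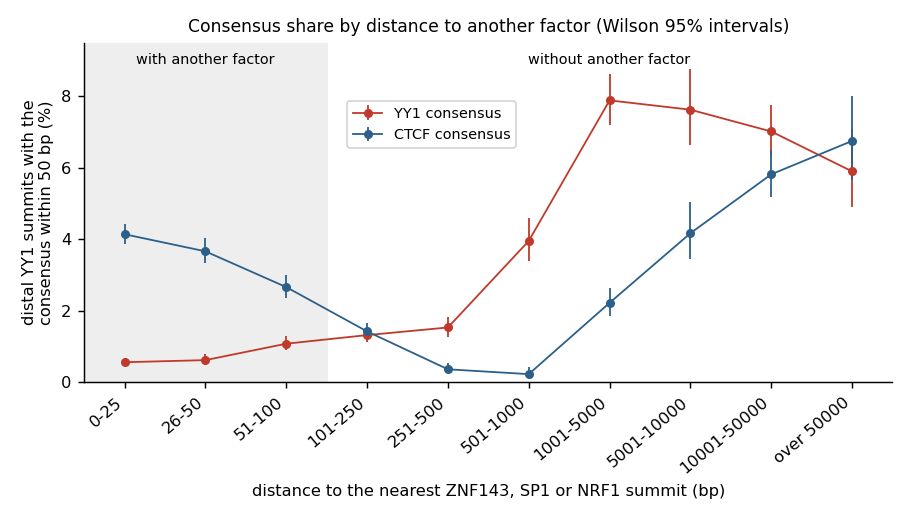
Share of distal YY1 summits with the YY1 or the CTCF consensus within 50 bp (y axis, percent, Wilson 95% intervals) by distance to the nearest ZNF143, SP1 or NRF1 summit (x axis, bp). Shaded bins are the shared summits and the others the solitary ones, whose YY1 share moves from 1.32% to 7.89% between 101 to 250 bp and 1001 to 5000 bp.

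The values at the edges of the rule are given with no test. YY1 summits just outside it, with another factor at 51 to 100 bp, had a median score of 12.3 and held the YY1 consensus in 1.08% and the CTCF consensus in 2.66%. Those just inside, at 101 to 150 bp, had 9.67, 1.43% and 1.83%. At the other edge, summits without another factor at 1501 to 2000 bp from a gene start had a median score of 7.26, the YY1 consensus in 1.89% and the CTCF consensus in 0.485%. Those at 2001 to 2500 bp had 6.90, 2.46% and 0.595%.

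Consensus sequences of other transcription factors were mostly rarer at solitary than at shared distal summits. Of the 21 sequence and annotation features compared, 3 were more frequent at solitary summits, 15 were less frequent and 3 did not pass an adjusted p of 0.05. The 15 include the motifs of SP1 and NRF1, factors whose absence chose the solitary summits, so those motifs are given as descriptions only. GATA factors bind AGATAAG, which was found at 1.33% of solitary summits, 1.58% of their flanks and 3.79% of shared distal summits (odds ratio 0.343, 0.310 to 0.380; Fisher's exact test, adjusted p = 1.49e-106). All YY1 summits held it in 2.14%. The AP-1 motif TGANTCA, bound by FOS and JUN proteins, was found at 2.94% of solitary and 5.00% of shared summits, with 2.96% in the solitary flanks (odds ratio 0.575, adjusted p = 1.55e-48 by Fisher's exact test). All YY1 summits held it in 3.37%.

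The forkhead motif TGTTTAC had shares of 2.11% and 3.14% at solitary and shared summits, with 2.20% of all YY1 summits (odds ratio 0.667). The SP/KLF motif GGGGCGGG was at 0.639% of solitary summits, 0.922% of their flanks, 1.27% of shared summits and 2.02% of all YY1 summits. The ETS motif CCGGAAG was at 0.487%, against 0.937% of shared and 1.43% of all YY1 summits. Both the forkhead and the ETS difference from the shared summits passed Fisher's exact test, with adjusted p-values of 1.31e-18 and 1.68e-13. Of the shared summits, 94.1% had SP1 among the factors within 100 bp, so comparisons with them largely set summits without SP1 against summits with it. Distal SP1 summits alone held the GATA motif in 4.34%, the AP-1 motif in 5.57% and the forkhead motif in 3.30%. They held the ETS motif in 0.362%, less than the solitary summits. The part of SP1 in the differences from shared summits was not tested.

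NRF1's motif CGCATGCG was found at 3 solitary summits and at 0.0507% of all YY1 summits. The ZNF143 consensus was found at 164 (0.446%), against 0.558% of all YY1 and 0.488% of shared summits, and it too belongs to a factor the rule used. The POU octamer ATTTGCAT was more frequent at solitary than at shared summits, at 0.527% against 0.357% (odds ratio 1.48, 1.19 to 1.83), and stood at 0.375% of all YY1 summits. Its share in the solitary flanks was higher still, at 0.805%. The TEAD motif CATTCCA did not pass (1.74% and 1.78% at solitary and shared summits, odds ratio 0.978, 0.879 to 1.09), and 1.57% of all YY1 summits held it. Nor did TTCAGCACC, part of the REST motif, pass (0.150% and 0.129%, odds ratio between 0.797 and 1.70, 0.163% of all YY1 summits).

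The remaining 6 motifs were each rarer at solitary than at shared distal summits, and each passed. The NFY motif AGCCAAT was found at 0.973% of solitary, 1.32% of shared and 1.08% of all YY1 summits. For the CREB motif TGACGTCA these shares were 0.0625%, 0.189% and 0.191%, and for the E-box CACGTG 1.54%, 1.92% and 1.96%. The E2F motif TTCCCGCC was found at 0.220%, 0.325% and 0.488%, the RUNX motif TGTGGTT at 1.58%, 1.94% and 1.56%, and the homeodomain motif TAATTA at 2.79%, 3.19% and 2.55%. The AP-1, CREB, NRF1 and homeodomain motifs and the E-box read the same or nearly so on both strands, and several of these motifs can overlap.

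Repeated sequence was another property of solitary summits. The 25 bases centred on the summit were counted over chromosomes 1 to 22, X and Y of hg38 on both strands. They occurred at least 10 times for 5764 solitary summits (15.7%, 15.3 to 16.0), against 9.32% of all YY1 summits and 7.04% of shared distal ones. The odds ratio against the shared summits was 2.45 (2.34 to 2.57; Fisher's exact test, p below 1e-290), and other settings gave 2.05 to 5.08. Against distal SP1 summits alone, of which 11.1% lay at such sequence, it was 1.49 (1.43 to 1.55), and other settings gave 1.37 to 2.96. The peak numbers of the NRF1 and YY1 lists skip runs of 10 or more in some regions, and without those regions 5.93% of distal SP1 summits lay at such sequence and the odds ratio was 2.95. With the top 50% of each list it was 2.96. At 6.02% of solitary summits the 25 bases had 1000 or more copies, and at 76.8% they were found once. Copies of a repeat share their descent and are not independent. The intervals and the p-value above count each summit separately and so overstate the certainty.

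The full YY1 consensus, with G as its ninth base, was more frequent at the repeated ones. It was found at 2.77% of the solitary summits whose 25 bases occur once, at 9.77% of those with 10 to 99 copies and at 10.1% of those with 1000 or more. The CTCF consensus went the other way, with 2.78% where the 25 bases occur once. Among far summits, the share with the full YY1 consensus was 5.36% with 1 copy and 14.5% with at least 10, and the CTCF share 5.72% and 0.231%. AANATGGC, with any base at the ninth position, did not show this rise among far summits. It was found at 22.3% of those with 1 copy and 21.4% of those with at least 10, with overlapping intervals, and this difference was not tested. How the authors treated reads that map to several places is not given in the sources used here, and its part in these counts was not tested.

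**Figure D3:**
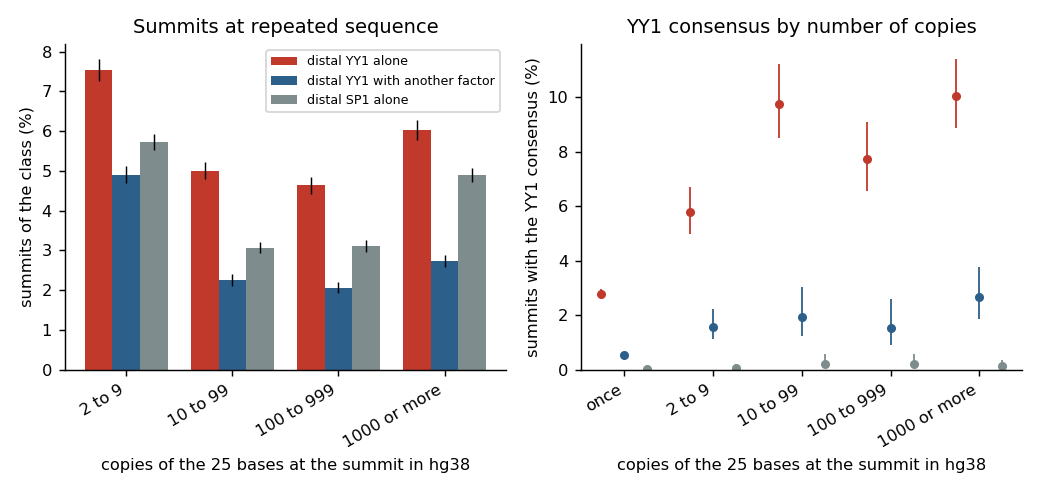
Left, share of each class of summits (y axis, percent) by the number of copies in hg38 of the 25 bases at the summit (x axis), with the single-copy bars left out; right, share of summits in each such group with the YY1 consensus within 50 bp. Error bars are Wilson 95% intervals, and the solitary distal summits stand above the shared distal YY1 and the distal SP1 summits in each group plotted, at 10.1% on the right for 1000 or more copies.

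Counting from the genome, few copies of the consensus carried a YY1 summit, and the letters around the core went with how many did. Away from gene starts AANATGGCG had 56543 copies, of which 1883 (3.33%, 3.18 to 3.48) had a YY1 summit within 50 bp, and 1572 of these had a solitary one as the nearest. Within 2000 bp of a gene start, 29.5% of 3358 copies did. Among the 4 forms of the consensus, AAGATGGCG was occupied at 11.3% of 8978 distal copies, AAAATGGCG at 4.96%, AATATGGCG at 2.38% and AACATGGCG at 1.14% of 36025. With another last letter, AANATGGCT was occupied at 1.22% of copies, AANATGGCC at 1.12% and AANATGGCA at 0.656%. Since copies of a repeat are not independent, no test of these shares was made.

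Distal by gene start did not mean distant from every transcript. An annotated 5′ end of some transcript lay within 500 bp of 3790 solitary summits (10.3%), and one of a protein-coding gene within 500 bp of 2249 (6.11%). Both shares were lower than at shared distal summits (12.39% and 7.50%) and over all YY1 summits (26.16% and 22.04%). These differences were not tested. Among the 100 highest-scoring solitary summits 62 had a start of some transcript within 500 bp, and 39 had one of a protein-coding gene. The 10 highest all had a transcript start within 500 bp. Median distance to the nearest protein-coding gene start was 36.9 kb, and 27.5% lay further than 100 kb. Introns of protein-coding genes held 49.7% of solitary summits, space between genes 29.3% and coding exons 1.81%.

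In all, 56.8% lay within a protein-coding gene, against 57.7% of shared distal summits and 61.2% of all YY1 summits. The odds ratio against the shared summits was 0.964 (0.937 to 0.991; Fisher's exact test, adjusted p = 0.0125). It turned to 1.01 with the other factor sought within 50 bp and to 1.05 with the other factors' lists cut to the length of the shortest. It did not pass at 0.996 for summits whose 25 bases occur once. Median GC content over 101 bp was 46.5% at solitary, 45.5% at shared distal and 61.4% at summits near gene starts.

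The highest-scoring solitary summit, at chr15:92904129 with a score of 5834, lay in an intron of CHD2, a chromatin remodeller, 17926 bp from its gene start and 344 bp from another protein-coding transcript start. It was 1 of 17 summits in its peak and held neither consensus, and another factor's summit was 203 bp away. Its sequence on the plus strand, chr15:92904109-92904149, was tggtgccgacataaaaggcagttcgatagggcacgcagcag. The second, at chrX:30889431 with a score of 4332, lay in an intron of TAB3, an adaptor of the TAK1 kinase, 177 bp from an annotated transcript start. It held the YY1 consensus 11 bp before the summit, in chrX:30889411-30889451 on the plus strand: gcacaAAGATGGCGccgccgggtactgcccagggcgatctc.

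The third, at chr22:38182013 (4277), lay in an intron of PLA2G6, a phospholipase gene. The next, at chr12:45727531 (4251), lay in an exon of the noncoding LINC00938, 2175 bp from the start of ARID2, a chromatin remodelling subunit. The other 6 scored 1949 to 3966 and lay in ZNF432, DNAJC7, BCL2L13, ATP5F1A, PIGU and RAB14. DNAJC7 is a co-chaperone, BCL2L13 a mitochondrial member of the BCL2 family, ATP5F1A a subunit of ATP synthase and RAB14 a small GTPase of vesicle traffic. The YY1 consensus was within 50 bp at TAB3, LINC00938, DNAJC7, BCL2L13 and RAB14. All 10 had another factor's summit at 103 to 385 bp and a transcript start at 6 to 477 bp. Summits in their peaks ran from 1 at DNAJC7 and PIGU to 10 at LINC00938 and 17 at CHD2.

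The 4 intronic summits whose sequences open the account, at ZSCAN5A, ABRAXAS1, FAM240B and MTHFD1L, scored 1257, 812, 212 and 145. Their nearest other factor was at 61651, 4776, 5517 and 3132 bp, and their nearest transcript start at 8900, 6593, 2577 and 288 bp. ABRAXAS1 encodes a scaffold of the BRCA1-A complex and MTHFD1L a mitochondrial folate enzyme. The consensus was centred 5 to 12 bp from the summit in each.

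The highest-scoring summits with the CTCF consensus scored less than the 10 highest of all solitary summits. The first, at chr7:113421864 (387), lay between genes, 303304 bp from the start of SMIM30, with another factor 119 bp away. The second, at chr3:188954814 (301), lay in an intron of TPRG1, 7600 bp from its start, and its other factors were 6954 bp away. Its CTCF match is seen in chr3:188954794-188954834 on the plus strand: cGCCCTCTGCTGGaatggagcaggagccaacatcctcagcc. The next 3, at chr2:190850752, chr12:93098217 and chr16:28327099, scored 255 to 292, and their nearest other factors were at 4692 to 10122 bp.

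Further than 500 kb from any protein-coding gene start, the 3 highest scores were 1510 at chr5:85663605, 950 at chr13:54572282 and 909 at chr5:104080339. Their 25 bases at the summit had 1597, 934 and 1205 copies.

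A noncoding gene's 5′ end lay within 500 bp of 1403 solitary summits (3.81%), against 6.47% of all YY1 summits and 4.66% of shared distal ones. The odds ratio against the shared summits was 0.811 (0.756 to 0.870; Fisher's exact test, adjusted p = 1.17e-08). It did not pass with a GC content of 40 to 60% (0.900), with the other factor sought within 50 bp (0.984) or with the top 50% of each list (0.991). The 5 noncoding genes with the highest-scoring solitary summit there were MIR3175 (5834, the CHD2 summit), LINC00938 (4251), ENSG00000289200 (1887), ENSG00000249413 (1767) and ENSG00000228933 (1721). The summit at ENSG00000249413 lay at a 25-base sequence with 1328 copies.

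Of 18756 lncRNA genes, 4.79% had a solitary summit within 500 bp of the 5′ end. In a list of 22 noncoding host genes of small RNAs 8 did: DANCR, MIR17HG, SNHG6, SNHG8, SNHG12, SNHG15, SNHG17 and SNHG29, with best scores from 6.00 at SNHG12 to 713 at SNHG17. Of 9 matched genes for abundant nuclear noncoding RNAs 3 did. They were MALAT1, whose RNA sits in nuclear speckles (score 1078, 172 bp downstream of the start, with the YY1 consensus), NORAD, whose RNA binds Pumilio proteins (1255, 378 bp downstream), and KCNQ1OT1 (46.0). Of 10 matched imprinted noncoding genes 2 did, KCNQ1OT1 and GNAS-AS1 (80.0). None of 4 noncoding genes of the X inactivation centre had a solitary summit within 500 bp, but each had some within 50 kb, with a median of 17.5. Their loci overlap and share summits, and no share over all noncoding genes is given here for 50 kb. Those 50 kb counts are therefore a description only.

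For protein-coding genes, 64.9% of 19970 had a solitary summit within 50 kb of the 5′ end. In the list of kidney development genes 16 of 22 did (72.7%), with a median of 2.5 summits over the list against 1 over all protein-coding genes. The homeobox genes HOXA11 and HOXC11, named after their values were seen, had 20 and 15. In the list of neuronal and neural crest genes 16 of 22 did (72.7%), with a median of 1 summit. In the list of stem cell genes 8 of 14 did (57.1%), with a median of 2. At LIN28B, chosen after its values were seen, the nearest solitary summit scored 1208 and lay 5296 bp downstream of the start. In the list of olfactory receptor and keratin genes 6 of 14 did (42.9%), with a median of 0.

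Within gene bodies, 35.1% of protein-coding genes held a solitary summit, at 1.61 per 100 kb over all bodies. LRMDA and NFIA held most, with 67 each, then ENSG00000285708 with 64 and FOXP1, which overlaps it, with 63, and GMDS with 59. NFIA and FOXP1 encode transcription factors. At NFIA this was 11.2 per 100 kb and at LRMDA 5.94, and the YY1 consensus was within 50 bp of 1 summit in each. Median scores in these 5 genes were 5.14 to 7.56.

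Neighbouring solitary summits lay a median of 20.1 kb apart, and 17.9% of the gaps were within 1000 bp. By chromosome, density ran from 6.83 per Mb on chromosome 2 to 18.1 on chromosome 19, and solitary summits were 44.4% of distal YY1 summits on chromosome 13 and 54.6% on chromosome 21. On chromosome 2 shared distal summits were sparse too, at 8.20 per Mb.

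Scores of solitary summits were low within the YY1 list, with quartiles of 3.95, 7.66 and 16.3. The median was 18.2 for shared distal summits and 41.3 near gene starts. Solitary summits were 61.4% of the lowest score decile of the list and 8.13% of the highest. The consensus share did not follow that fall. The YY1 consensus was found at 0.947% of solitary summits in the lowest decile, 6.66% (5.87 to 7.55) in decile 6, 4.30% in decile 9 and 7.51% (5.93 to 9.45) in the highest. The CTCF consensus was found at 0.0764%, 4.89%, 2.12% and 1.73% in the same deciles. At shared distal summits the YY1 share was 0.168% in the lowest decile and 4.44% in the highest.

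**Figure D4:**
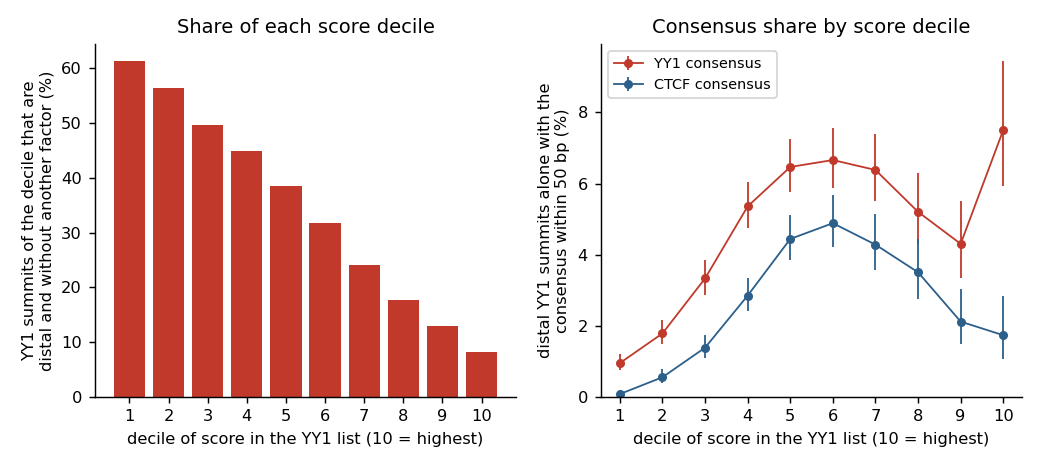
Left, share of the YY1 list's summits in each score decile (x axis, 10 the highest) that were solitary distal ones (y axis, percent). Right, share of those solitary summits with the YY1 or the CTCF consensus within 50 bp, with Wilson 95% intervals; the CTCF share is highest in decile 6, at 4.89%.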

How the data were processed

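YY1, ZNF143, SP1 and NRF1 were each given as 1 list of summits. Per the submitters' processing notes, cutadapt, Bowtie2, SAMtools 1.16.1, MACS3 and bedtools were used with hg38; settings are not given in the sources used here. The authors' deposited score is a −log10 p-value or q-value, which of them is not stated, and its lowest value is 2.00. It rises with depth, so scores were read only within the YY1 list.

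Positions were compared with GENCODE 44 and hg38 in Python 3.11.15 with numpy 2.4.6, pandas 2.3.3 and SciPy 1.17.1. Motif scan and Fisher's test were checked on simulated data. Features were compared between classes of summits by two-sided Fisher's exact tests, adjusted by Benjamini-Hochberg over 21 features. A repeat-mask comparison was planned, but the sequence used carried no mask, so copies of the 25 bases at the summit were counted instead, a choice made after seeing the files. The members, motifs and gene lists were chosen with earlier results of these data known. Named members were the 10 highest scores, the 5 highest with the YY1 and with the CTCF consensus, the 3 highest beyond 500 kb, the noncoding genes with the 5 highest-scoring summits and the 5 protein-coding genes holding most. Alternatives changed distances, windows, mismatches and which summits counted. Certain recurrent sequences and 1 gene are not reported here.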

Additional observations from a re-analysis of the deposited data

How the results depend on the processing

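The YY1 consensus kept its direction and passed against shared summits under all 16 alternatives. The 25-base copies did so against both classes under all 14. The CTCF consensus was at 2.21% of solitary summits and 0.384% of distal SP1 summits alone, an odds ratio of 5.86. Its 16 alternatives gave 2.60 to 22.7. Those SP1 summits were chosen for having no YY1 summit nearby, so these values are given as a description only. The CTCF consensus against shared summits reversed in 3 of 16 alternatives, at 1.64 with another factor within 1000 bp, 1.97 with the other lists cut to the shortest and 2.18 with the top 50% of each list. The share within protein-coding genes reversed at 1.01 with another factor within 50 bp and 1.05 with cut lists, and was weaker at 0.996 with the 25 bases found once. The noncoding 5′ end was weaker at 0.900 with a GC content of 40 to 60%, 0.984 with another factor within 50 bp and 0.991 with the top 50%. The causes were not tested. The alternatives on single-copy summits, on every transcript start, on peaks with 1 summit and on copy numbers were chosen after seeing the data. Alternatives that need a repeat mask were not run, and the noncoding 5′ end could not be compared away from every transcript start, where it is absent by construction. No paired analysis was possible because the lists hold no column per sample. Depth is unknown, and a deeper SP1 list would leave fewer YY1 summits solitary by the rule.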
